A study of Mus musculus with 28 samples.

Results

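*Hmgcs1*, *Sqle*, *Insig1*, *Srebf2*, *Idi1*, *Fdft1* and *Cyp51* are 7 genes of cholesterol synthesis and its control, taken by symbol from the 48587 genes of a count table of mouse microglia, the resident macrophages of the brain. Their label names synthesis and uptake, but 5 of the 7 encode enzymes of synthesis, *Srebf2* and *Insig1* encode regulators, and none is an uptake receptor. RNA was sequenced from sorted hippocampal CD11b+CD45low cells of 28 mice aged 16 weeks, 1 library per mouse. The transgenic mice were heterozygous male 5xFAD mice on a C57BL/6J background, which carry human APP with the Swedish, Florida and London mutations and mutated human PS1. Both transgenes are driven by the Thy-1 promoter, which is specific to neurons, and not by a promoter of the sequenced cells. Non-transgenic littermates served as wild type (WT). Each genotype was held in 3 ways, namely with a specific pathogen-free (SPF) microbiota, germ-free (GF), or SPF with vancomycin, cefoxitin, gentamicin and metronidazole in the drinking water for 8 weeks (ABX). Of the WT mice 5 were SPF, 4 GF and 5 ABX, and of the 5xFAD mice 3, 5 and 6. The GF mice came from Bern and all others from Freiburg, so germ-free status cannot be told apart from the animal facility.

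Cholesterol is built from acetyl-CoA through mevalonate, isoprenoid diphosphates, squalene and lanosterol. When membranes of the endoplasmic reticulum run low in sterol, SCAP carries the transcription factor SREBP-2 to the Golgi, where it is cleaved and then switches on the genes of this route. INSIG proteins hold SCAP back when sterol is plentiful, and microglia meet much of their sterol as lipoproteins and as lipid debris that they engulf.

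All 7 genes are protein-coding, and their exons were counted on GRCm38 at chr13:119690462-119708086 (*Hmgcs1*), chr15:59315077-59331192 (*Sqle*), chr5:28071363-28078662 (*Insig1*), chr15:82147266-82205376 (*Srebf2*), chr13:8885501-8892451 (*Idi1*), chr14:63145153-63177793 (*Fdft1*, minus strand) and chr5:4081145-4104746 (*Cyp51*, minus strand). RefSeq promoters of GRCm38.p6, from 250 bases before to 50 bases after the start, were matched for 5 of the 7 genes and not for *Sqle* and *Fdft1*. They were searched on both strands for the core of the sterol regulatory element that SREBP binds (CACNCCAC, and within it the form CACCCCAC), for the NF-Y box CCAAT and for the GC box GGGCGG, since NF-Y and Sp1 are known partners of SREBP. The stretches of 4 promoters that lie upstream of every annotated exon of their gene are printed on the gene's own strand, to show which of these letters each holds. The stretch of *Idi1*, of 145 bases, held none of the motifs and is not printed. Capitals mark a motif on either strand, so that ATTGG is CCAAT and CCGCCC is GGGCGG read on the other strand.
Hmgcs1, chr13:119690101-119690350, plus strand: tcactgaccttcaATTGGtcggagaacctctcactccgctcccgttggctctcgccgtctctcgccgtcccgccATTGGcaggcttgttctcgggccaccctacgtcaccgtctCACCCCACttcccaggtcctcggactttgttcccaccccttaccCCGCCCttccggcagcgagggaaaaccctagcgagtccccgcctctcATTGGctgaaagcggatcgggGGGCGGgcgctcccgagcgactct
Insig1, chr5:28071162-28071362, plus strand: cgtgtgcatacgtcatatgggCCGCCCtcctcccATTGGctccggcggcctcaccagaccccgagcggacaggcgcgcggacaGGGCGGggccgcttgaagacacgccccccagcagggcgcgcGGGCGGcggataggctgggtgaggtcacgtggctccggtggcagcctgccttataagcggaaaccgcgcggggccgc
Srebf2, chr15:82147019-82147180, plus strand: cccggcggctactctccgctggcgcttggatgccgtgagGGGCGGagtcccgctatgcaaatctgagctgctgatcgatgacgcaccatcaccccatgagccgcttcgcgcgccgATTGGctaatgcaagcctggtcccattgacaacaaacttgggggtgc
Cyp51, chr5:4104747-4104947, minus strand: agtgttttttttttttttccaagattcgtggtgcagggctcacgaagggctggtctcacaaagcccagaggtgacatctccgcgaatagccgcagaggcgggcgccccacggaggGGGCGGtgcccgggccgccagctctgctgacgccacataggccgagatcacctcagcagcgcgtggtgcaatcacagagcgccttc
CACNCCAC was found in the full windows of *Hmgcs1*, 136 bases before the start and in the form CACCCCAC, and of *Insig1*, 9 bases before the start on the other strand. That is 2 of 5 members, where 6.24% of all 32851 promoters of this length held it and 2.87% held CACCCCAC. CCAAT and GGGCGG were each found in 5 of 5 members, where 37.4% and 35.7% of all promoters held them. These are matches of letters, and no binding was measured. Other forms of the sterol regulatory element were not searched, so a promoter without CACNCCAC is not shown to lack such an element.

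Library totals lay between 14441610 and 29977395 reads on genes, and 15298 genes, all 7 members among them, passed a filter on low counts. Levels are given as CPM, reads scaled to a common library size with TMM factors, and differences were tested with edgeR's quasi-likelihood test over all 28 mice, with Benjamini-Hochberg adjustment over all genes tested and a threshold of 0.05. The 12 microglia markers summed to 63957 to 72135 CPM in SPF WT and 56063 to 61830 CPM in SPF 5xFAD mice, without overlap. The sums overlapped in GF mice (66207 to 69559 CPM in WT and 57190 to 66549 CPM in 5xFAD mice) and in ABX mice (63873 to 74496 and 56905 to 65610 CPM). In 5xFAD mice edgeR called 3, 5 and 5 of the 12 lower in SPF, GF and ABX mice, where 0.837%, 6.2% and 4.98% of all genes were lower, and limma's voomWithQualityWeights, which weights each library, called 8, 6 and 5. *P2ry12* and *Tmem119* were among those called by edgeR in each housing, and the part of this shift in the results was not tested. The 7 markers of border-associated macrophages summed to 3.38 to 7.71 CPM in SPF WT mice, 16.5 to 29 CPM in SPF 5xFAD mice and 33.3 to 259 CPM in ABX 5xFAD mice, and the 7 neutrophil markers to at most 0.285 CPM in SPF WT and 60.7 to 269 CPM in SPF 5xFAD mice. In ABX WT mice these sums were 3.57 to 5.83 and at most 0.198 CPM, and in ABX 5xFAD mice the neutrophil sum was 141 CPM in mouse FAD_ABX_1151 and at most 0.289 CPM in the others. In GF mice the macrophage sums overlapped, at 10.5 to 43.1 CPM in WT and 10.8 to 84.9 CPM in 5xFAD mice, and the neutrophil sums were at most 0.0895 CPM. In bulk samples such as these, fewer cells of a type and less RNA per cell cannot be told apart. Over all mice the sums were 0.779 to 21.1 CPM for neuron, 169 to 322 for astrocyte, 151 to 240 for oligodendrocyte, 10.1 to 51.5 for endothelial cell (*Slco1a4* and *Ly6c1* at 0 in all), 0 to 3.21 for T cell (*Cd8a* at 0 in all), 522 to 872 for B cell and 0 to 0.912 CPM for erythrocyte markers. Only 2 of the 5 B cell and 1 of the 6 T cell markers passed the filter. In GF mice the genotypes did not overlap for astrocyte markers (225 to 292 CPM in WT and 169 to 202 CPM in 5xFAD mice). The same held there for endothelial (28.2 to 34.7 and 10.1 to 23.1 CPM) and T cell markers (0 to 0.627 and 0.953 to 3.21 CPM). In SPF and ABX mice these sums overlapped. The 10 immediate early genes summed to 684 to 873 CPM in GF 5xFAD mice and 320 to 841 CPM in the other groups. The descriptions number the libraries in 3 styles, of which one holds all SPF and ABX WT mice, the next the SPF 5xFAD mice and mouse FAD_ABX_1151, and the last the remaining ABX 5xFAD mice together with every GF mouse. The former styles both pair a running number with a mouse number and differ in the length of the mouse number, while the last gives housing and genotype. No source says whether these are batches, and as divided here only in GF mice are both genotypes in 1 style. With the former styles taken as 1, both SPF genotypes would share it, and mouse FAD_ABX_1151 would share it with the ABX WT mice. Mouse FAD_GF_201 is 5xFAD in its title and genotype but WT in its description. It had the lowest level of its group for 7 of 7 members.

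In microglia of 5xFAD mice, *Srebf2*, *Insig1*, *Sqle* and *Cyp51* were higher than in WT mice in each of the 3 housings, by 1.77 to 4.31 times. *Hmgcs1* and *Fdft1* passed the test in GF mice, by 1.51 and 1.52 times, and in neither of the others, and *Idi1*, which gave 0 to 22 reads, did not pass in any housing. Thus 4 of 7 members were higher in SPF 5xFAD mice, where 4.57% of all genes tested passed in either direction and 3.73% were higher. In GF mice 6 of 7 were higher, against 15.6% of all genes in either direction and 9.43% higher. In ABX mice 4 of 7 were higher, against 14.4% and 9.45%. No member was lower in 5xFAD mice in any housing. The median log2 fold change over the 7 members was 0.92 in SPF mice, 1.15 under GF and 1.30 under ABX conditions, beside -0.03, -0.03 and -0.01 over all genes. The GF median is the estimate of *Idi1* itself, the member with 0 to 22 reads, and the medians were not compared by a test. Averaged over the housings, 6 of 7 were higher, against 25.1% of all genes in either direction and 14.3% higher, and the 7 estimates ran from 0.30 to 1.86. The macrophage sums of the genotypes overlapped in GF mice and did not overlap in SPF and ABX mice. In SPF mice the neutrophil and microglia sums did not overlap either. In GF mice the sums of astrocyte, endothelial and T cell markers did not overlap. The part of these marker sums in the result was not tested. The counts of members called were 4, 6 and 4 also without mice FAD_ABX_1151 and FAD_ABX_1482, and 6 of 7 members were higher in GF mice without mouse FAD_GF_201. With each of the 28 mice left out in turn they were 3 to 4 in SPF, 4 to 6 in GF and 3 to 5 in ABX mice. Without WT_GF_231 the GF count was 4, with *Hmgcs1* and *Fdft1* at adjusted p-values of 0.107 and 0.146, and without FAD_ABX_1482 alone the ABX count was 5. The SPF count was 3 without WT_SPF_926, WT_SPF_928, FAD_SPF_1144 or FAD_SPF_1146, and the ABX count was 3 without WT_ABX_911, WT_ABX_932 or FAD_ABX_1460.

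**Figure D1:**
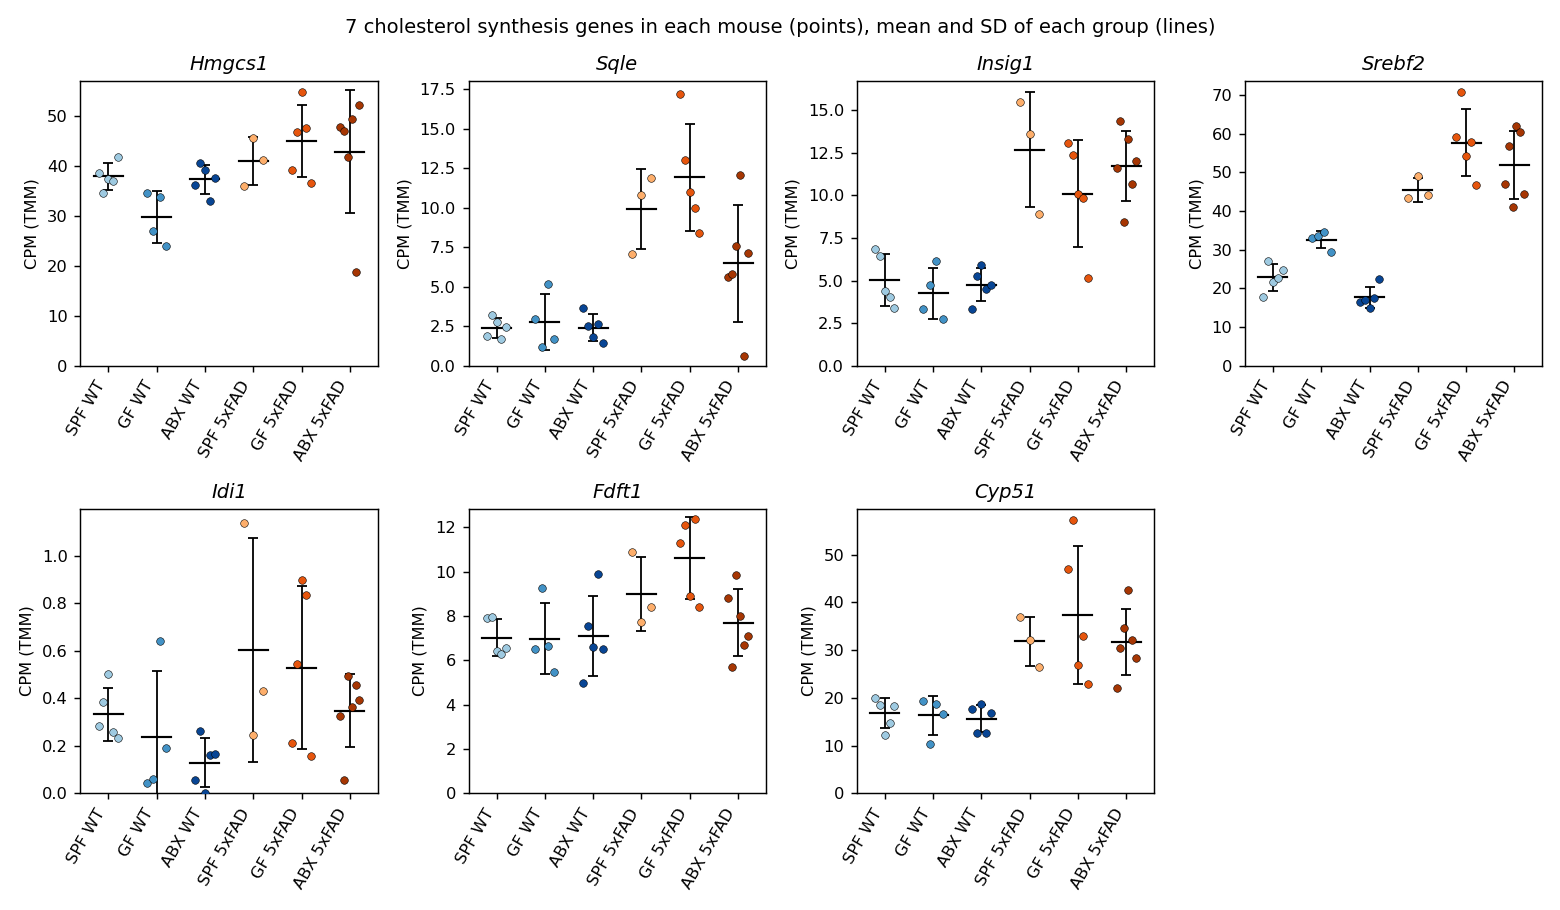
CPM of the 7 genes (vertical axes, from 0) in each of the 28 mice (points) by group (horizontal axes), with the mean (horizontal line) and SD (error bar, not drawn below 0) of each group. For *Srebf2* and *Cyp51* every 5xFAD mouse lies above every WT mouse of its housing, and the lone low point of *Hmgcs1* at 18.7 CPM is mouse FAD_ABX_1482.

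*Srebf2* encodes SREBP-2, the transcription factor of the route. In SPF WT mice it was at 17.8, 21.7, 22.7, 24.8 and 27.1 CPM and in SPF 5xFAD mice at 43.4, 44.1 and 49 CPM. In GF WT mice it was at 29.4, 32.9, 33.5 and 34.6 CPM and in GF 5xFAD mice at 46.7, 54.1, 57.9, 59 and 70.8 CPM. In ABX WT mice it was at 14.9, 16.4, 17.1, 17.6 and 22.3 CPM and in the 6 ABX 5xFAD mice between 40.9 and 61.9 CPM with a median of 51.9 CPM. The genotypes did not overlap in any housing. The log2 fold change of 5xFAD over WT was 0.99 (SE 0.152, adjusted p = 4.51e-05) in SPF, 0.82 (SE 0.144, adjusted p = 0.000119) in GF and 1.55 (SE 0.134, adjusted p = 1.08e-09) in ABX mice, so that *Srebf2* rose 1.99, 1.77 and 2.93 times.

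*Insig1* encodes the endoplasmic reticulum anchor that holds the SCAP-SREBP complex back, and is itself a known SREBP target. It was at 3.41, 4.05, 4.41, 6.45 and 6.85 CPM in SPF WT and at 8.93, 13.6 and 15.5 CPM in SPF 5xFAD mice. GF WT mice had 2.77, 3.31, 4.72 and 6.17 CPM and GF 5xFAD mice 5.14, 9.83, 10.1, 12.4 and 13.1 CPM. ABX WT mice had 3.32, 4.51, 4.74, 5.29 and 5.89 CPM and ABX 5xFAD mice 8.46 to 14.4 CPM with a median of 11.8 CPM. Only mouse FAD_GF_201, at 5.14 CPM, fell within the WT range of its housing. *Insig1* rose 2.51 times in SPF (log2 1.33, SE 0.282, adjusted p = 0.00282), 2.38 times in GF (1.25, SE 0.275, 0.00166) and 2.47 times in ABX mice (1.30, SE 0.247, 0.000401). Without mouse FAD_GF_201 the log2 fold change in GF mice was 1.43, with an adjusted p of 0.0002.

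*Hmgcs1* encodes HMG-CoA synthase, an early enzyme of the mevalonate route, and per kilobase of exon it had the highest level of the 7. The mean levels over all mice were 12.2 CPM per kilobase for *Hmgcs1*, 7.65 for *Srebf2*, 5.67 for *Cyp51*, 2.81 for *Fdft1*, 2.6 for *Insig1*, 1.05 for *Sqle* and 0.1 for *Idi1*. Its levels were 34.6, 37, 37.4, 38.7 and 41.9 CPM in SPF WT and 36, 41.2 and 45.7 CPM in SPF 5xFAD mice. They were 23.9, 27, 33.9 and 34.6 CPM in GF WT and 36.7, 39.2, 46.8, 47.7 and 54.8 CPM in GF 5xFAD mice. In ABX WT mice they were 33.1, 36.3, 37.7, 39.3 and 40.6 CPM, and in ABX 5xFAD mice they ran from 18.7 to 52.3 CPM with a median of 47.5 CPM. The genotypes overlapped in SPF mice and were apart in GF mice, where the WT group had the lowest mean of the 6 groups (29.9 ± 5.25 CPM, SD, n = 4). In ABX mice 5 of 6 5xFAD mice were above every WT mouse and mouse FAD_ABX_1482 was below them all. *Hmgcs1* rose 1.51 times in GF mice (log2 0.59, SE 0.186, adjusted p = 0.0278), a call lost without mouse FAD_GF_184, WT_GF_229 or WT_GF_231 (adjusted p of 0.0702, 0.0797 and 0.107). It gave 0.11 in SPF mice (95% interval -0.29 to 0.52, adjusted p = 0.913) and 0.20 in ABX mice (-0.14 to 0.54, 0.48), the latter 0.35 with an adjusted p of 0.0405 without mouse FAD_ABX_1482. The effect in GF mice was not shown to differ from that in SPF mice (difference 0.48, 95% interval -0.08 to 1.04, adjusted p = 0.656) or in ABX mice (0.39, -0.11 to 0.90, 0.457).

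*Idi1*, which encodes the isomerase of isopentenyl diphosphate, was near the floor of the assay. It had 10 or more reads in 7 of 28 mice, of which 2 were WT and 5 were 5xFAD, and 0 reads in 1 mouse. Its mean (± SD) was 0.333 ± 0.111 CPM in the SPF WT group (n = 5) and 0.606 ± 0.473 CPM in the 5xFAD mice of that housing (n = 3). For GF mice the means were 0.236 ± 0.28 CPM (WT, n = 4) and 0.53 ± 0.343 CPM (5xFAD, n = 5), and for ABX mice 0.13 ± 0.103 CPM (WT, n = 5) and 0.349 ± 0.155 CPM (5xFAD, n = 6). The genotypes overlapped in each housing. Its log2 fold changes of 0.85, 1.15 and 1.38 had 95% intervals of -0.82 to 2.52, -0.48 to 2.79 and -0.16 to 2.92, so a change of several-fold or none was not distinguishable at this depth.

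*Fdft1* encodes squalene synthase, the first step committed to sterols. It was at 6.29, 6.43, 6.55, 7.91 and 7.94 CPM in SPF WT and 7.73, 8.39 and 10.9 CPM in SPF 5xFAD mice. GF WT mice had 5.48, 6.53, 6.65 and 9.25 CPM and GF 5xFAD mice 8.41, 8.91, 11.3, 12.1 and 12.4 CPM. ABX WT mice had 4.98, 6.52, 6.6, 7.54 and 9.88 CPM and ABX 5xFAD mice 5.71 to 9.86 CPM with a median of 7.56 CPM. The genotypes overlapped in all 3 housings. *Fdft1* rose 1.52 times in GF mice (log2 0.61, SE 0.207, adjusted p = 0.0436), and over the alternatives to this fit the adjusted p ran from 0.0194 to 0.158. In SPF mice the log2 fold change was 0.36 (95% interval -0.10 to 0.81, adjusted p = 0.542) and in ABX mice 0.12 (-0.26 to 0.50, 0.737). A limit on these values is that 767 of its 2860 exon bases overlap *Ctsb* on the other strand and the libraries keep no strand. *Ctsb*, the gene of the lysosomal protease cathepsin B, was at group means of 3305 to 10168 CPM and rose by 1.34, 1.62 and 1.22 on the log2 scale in SPF, GF and ABX mice, and its part in the *Fdft1* counts was not tested.

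*Sqle* encodes squalene epoxidase, a rate-limiting enzyme of the later route. It was at 1.68, 1.88, 2.48, 2.79 and 3.22 CPM in SPF WT and 7.06, 10.8 and 11.9 CPM in SPF 5xFAD mice. It was at 1.18, 1.67, 2.95 and 5.15 CPM in GF WT and 8.41, 10, 11, 13 and 17.2 CPM in GF 5xFAD mice. ABX WT mice had 1.45, 1.84, 2.51, 2.61 and 3.66 CPM and ABX 5xFAD mice 0.586 to 12.1 CPM with a median of 6.5 CPM. The genotypes were apart in SPF and GF mice, and in ABX mice only mouse FAD_ABX_1482, with 9 reads, was not above all WT mice. Its increase had the highest point estimate of the 7 in SPF and GF mice, at 4.11 times (log2 2.04, SE 0.477, adjusted p = 0.00773) and 4.31 times (2.11, SE 0.474, 0.00207). In ABX mice *Sqle* rose 2.7 times (1.43, SE 0.422, 0.0205), a call lost without mouse WT_ABX_911, WT_ABX_932 or FAD_ABX_1460 and in a fit of the 2 groups alone, with adjusted p-values of 0.0574 to 0.0758. An exact two-sided permutation test of its log2 CPM in the same ABX groups gave an unadjusted p of 0.169.

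*Cyp51* encodes lanosterol demethylase, the cytochrome P450 of the route. SPF WT mice had 12.3, 14.8, 18.4, 18.5 and 20 CPM and SPF 5xFAD mice 26.5, 32.1 and 36.9 CPM. GF WT mice had 10.4, 16.7, 18.8 and 19.4 CPM and GF 5xFAD mice 23, 26.8, 32.9, 47 and 57.3 CPM. ABX WT mice had 12.6, 12.6, 16.8, 17.6 and 18.7 CPM and ABX 5xFAD mice 22.1 to 42.6 CPM with a median of 31.3 CPM. As for *Srebf2*, the genotypes did not overlap in any housing, and the GF 5xFAD mice had the widest spread (37.4 ± 14.4 CPM, SD, n = 5). *Cyp51* rose 1.89 times in SPF mice (log2 0.92, SE 0.244, adjusted p = 0.0219), 2.28 times in GF mice (1.19, SE 0.235, 0.000526) and 2.02 times in ABX mice (1.01, SE 0.211, 0.00113). In SPF mice the call was lost without mouse WT_SPF_926, WT_SPF_928, FAD_SPF_1144 or FAD_SPF_1146, with adjusted p-values of 0.0553 to 0.161. It shares 166 of its 4415 exon bases with *Akap9* on the other strand. *Akap9*, a scaffold gene, fell by 0.35 in GF and 0.27 in ABX mice on the log2 scale, with 0.05 in SPF mice.

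Counted over members, every 5xFAD mouse was above every WT mouse for 4 of 7 in SPF, 4 of 7 in GF and 3 of 7 in ABX mice. Over all genes tested the same held for 9.44%, 9.14% and 4.68%. Exact two-sided permutation tests of each member's log2 CPM in the 9 comparisons of 2 groups gave an unadjusted p under 0.05 in 21 of 63 tests, and the lowest p adjusted over the 63 was 0.0909. It was that of *Insig1*, *Srebf2* and *Cyp51* between 6 ABX 5xFAD and 5 ABX WT mice, where the unadjusted p of 0.00433 was the smallest that 462 arrangements allow. In the plot of fold changes by housing, the intervals of each member overlap between housings except those of *Srebf2* in GF and ABX mice.

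**Figure D2:**
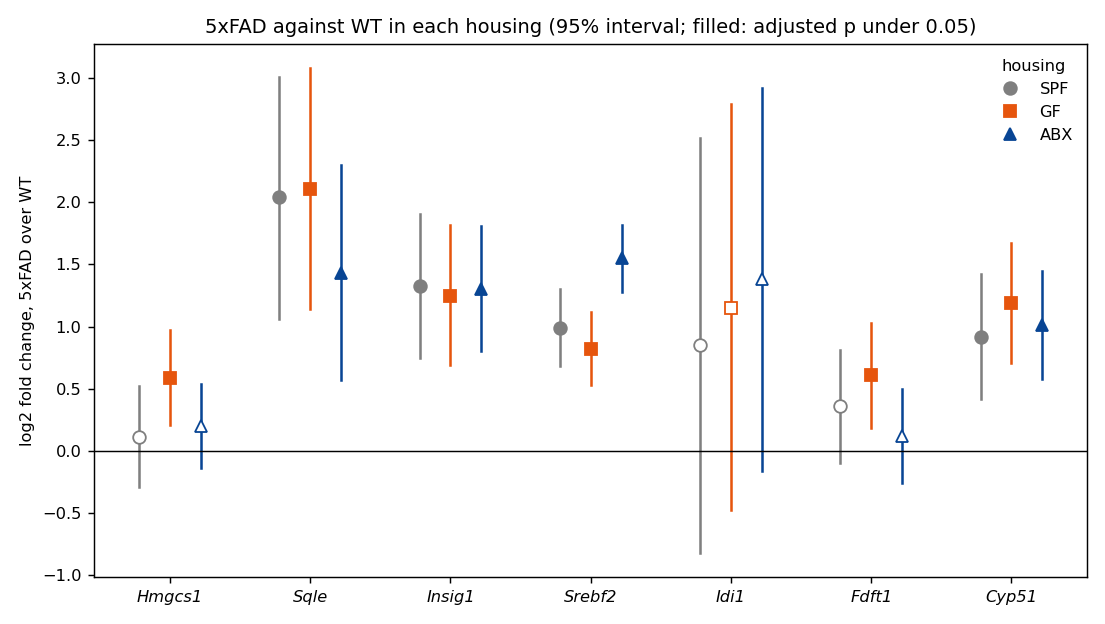
Log2 fold change of 5xFAD over WT (vertical axis) for each of the 7 genes in SPF (circles), GF (squares) and ABX mice (triangles), with 95% intervals from the edgeR fit and filled symbols where the adjusted p was under 0.05. *Sqle*, *Insig1*, *Srebf2* and *Cyp51* are filled in all 3 housings, and the intervals of *Idi1* are the widest.

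Whether the microbiota changed these genes was asked within each genotype. *Srebf2* was the only member to pass such a test, and it did so in WT mice. Its order in WT mice was GF, SPF and ABX (means 32.6 ± 2.23, 22.8 ± 3.51 and 17.7 ± 2.8 CPM, SD). Every GF WT mouse, at 29.4 CPM or more, was above every SPF WT mouse, at 27.1 CPM or less, and above every ABX WT mouse. *Srebf2* was 1.84 times higher in GF than in ABX WT mice (log2 0.88, SE 0.143, adjusted p = 0.00114), which made 1 of 7 members called where 6.88% of all genes were. The macrophage marker sums of the GF WT mice, at 10.5 to 43.1 CPM, also lay above those of the ABX WT mice (3.57 to 5.83 CPM) and the SPF WT mice (3.38 to 7.71 CPM) without overlap, and their part in this result was not tested. The GF WT mice were also in another numbering style than the ABX and SPF WT mice, so housing cannot be told apart from style here. GF against SPF WT mice gave 0.51 (SE 0.142), with an adjusted p of 0.0587 in edgeR, 0.0145 in DESeq2 and 0.0172 with limma's voomWithQualityWeights. By edgeR this made 0 of 7 members called, with 1 at an unadjusted p under 0.05, where 1.62% of all genes were called, and DESeq2 and voomWithQualityWeights each called 1. ABX against SPF WT mice gave -0.37 (SE 0.136, unadjusted p = 0.0115, adjusted p = 1), with 0 of 7 members and 0% of all genes called by edgeR, and 0 members by the other tools, and 1 member at an unadjusted p under 0.05.

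In 5xFAD mice the order of the *Srebf2* means was GF, ABX and SPF (57.7 ± 8.77, 51.9 ± 8.9 and 45.5 ± 3.05 CPM, SD), and no neighbouring pair passed. GF against SPF gave 0.34 (adjusted p = 0.148), GF against ABX 0.15 (0.483) and ABX against SPF 0.19 (0.818). Of the other members, *Sqle* gave 0.88 between GF and ABX 5xFAD mice (95% interval 0.07 to 1.69, adjusted p = 0.157) and *Fdft1* 0.46 (0.09 to 0.84, 0.104), and without mice FAD_ABX_1151 and FAD_ABX_1482 these were 0.62 (0.261) and 0.39 (0.245). Thus edgeR called 0 of 7 members for GF against SPF, ABX against SPF and GF against ABX 5xFAD mice, where 12.8%, 0% and 10.6% of all genes were called. At an unadjusted p under 0.05 there were 1, 0 and 2 members. DESeq2 called 0, 0 and 0, and voomWithQualityWeights 1 (*Srebf2*), 0 and 0.

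The difference of the 5xFAD effect between housings was tested directly. For *Srebf2* the effect in GF mice was lower than in ABX mice by a log2 difference of -0.73 (SE 0.192, 95% interval -1.12 to -0.33, adjusted p = 0.0474), 1 of 7 members called where 1.76% of all genes were. The WT level was higher in GF than in ABX mice, while the levels of the GF and ABX 5xFAD mice overlapped. The macrophage sums stood apart between these WT groups too, as given above, and overlapped between the GF and ABX 5xFAD mice (10.8 to 84.9 and 33.3 to 259 CPM). All GF mice and 5 of 6 ABX 5xFAD mice shared a numbering style, while the ABX WT mice were in another. This difference therefore cannot be told apart from numbering style. The call was lost in 24 of 37 alternatives, among them 21 of the 28 fits that left out 1 mouse. Over all of them the difference was between -0.83 and -0.65 and the adjusted p ran from 0.0125 to 0.0916. For GF minus SPF and ABX minus SPF edgeR called 0 of 7 members and 0% of all genes, with 0 and 1 members at an unadjusted p under 0.05 and 0 by DESeq2 or voomWithQualityWeights. For the other 6 members the GF minus ABX intervals all included 0, with estimates from -0.23 for *Idi1* to 0.68 for *Sqle*. A test of any difference among the 6 groups passed for 4 of 7 members (*Sqle*, *Insig1*, *Srebf2* and *Cyp51*), where 33.2% of all genes passed.

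Members were also set against each other within groups, after each group mean was taken off the log2 CPM. *Hmgcs1* and *Sqle* had the highest of the 21 correlations, at r = 0.77 over 28 mice, and r = 0.46 without mouse FAD_ABX_1482. That mouse lay 1.12 below its group mean for *Hmgcs1* and 2.87 below for *Sqle* on the log2 scale, but 0.24 above for *Srebf2*, 0.05 above for *Cyp51* and 0.11 below for *Insig1*. Its microglia marker sum was 56905 CPM, the lowest of its group, and its macrophage and neutrophil sums were 118 and 0.261 CPM. Next came *Insig1* with *Fdft1* and *Cyp51*, at 0.38 and 0.37, and *Srebf2* correlated with the 6 others at -0.10 to 0.34. The points share library depth and scaling, and the values are a description.

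**Figure D3:**
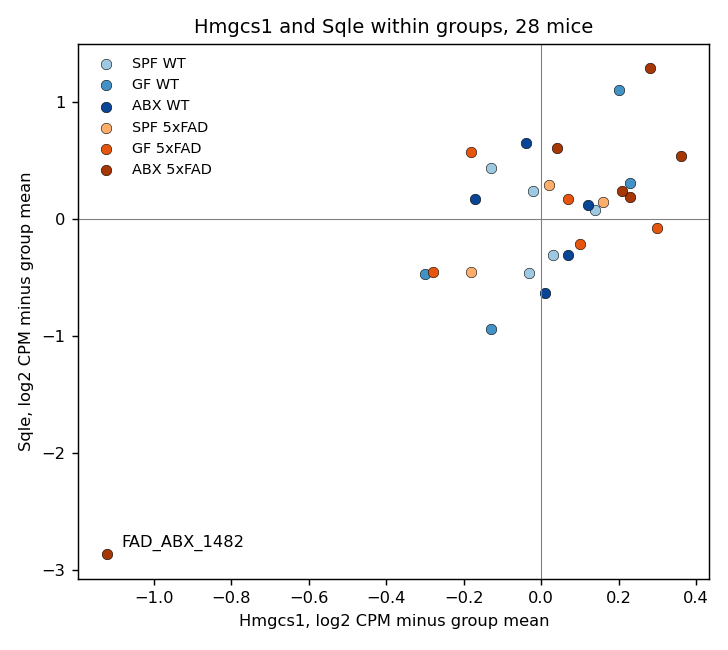
Log2 CPM minus the mean of the mouse's group for *Hmgcs1* (horizontal axis) and *Sqle* (vertical axis) in the 28 mice (points, coloured by group). Mouse FAD_ABX_1482 stands apart at -1.12 and -2.87, and r falls from 0.77 to 0.46 without it.

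Other enzymes of the route were set beside the members. Of 5 listed enzymes between acetyl-CoA and farnesyl diphosphate besides the members, edgeR called 0 in each of the SPF, GF and ABX comparisons, with 0, 1 and 2 at an unadjusted p under 0.05. DESeq2, voomWithQualityWeights and edgeR without mice FAD_ABX_1151 and FAD_ABX_1482 each called 0, 1 and 0. With 5 genes and 4.57%, 15.6% and 14.4% of all genes called, a count of 0 is near the background. Averaged over the housings, *Pmvk*, of phosphomevalonate kinase, rose by 0.49 (adjusted p = 0.00575) and *Fdps*, of farnesyl diphosphate synthase, by 0.54 (0.0157). Of 9 listed enzymes from squalene epoxide to cholesterol, all tested, 2, 3 and 3 rose in SPF, GF and ABX mice, against 3.73%, 9.43% and 9.45% of all genes. The SPF count was 3 with DESeq2, with voomWithQualityWeights and without mice FAD_ABX_1151 and FAD_ABX_1482. *Dhcr7*, of the last step, rose by 0.65, 1.07 and 1.10, *Sc5d*, a desaturase just before it, by 0.78, 0.93 and 0.50, and *Msmo1*, which works after *Cyp51*, by 0.71 in GF and 0.38 in ABX mice, with 0.49 in SPF mice (adjusted p = 0.0708). Of the 6 enzymes that draw farnesyl diphosphate off to other products, 0, 1 and 0 were called, the one being *Fntb* in GF mice (0.70, adjusted p = 0.0474). DESeq2 also called 0, 1 and 0, and voomWithQualityWeights called 0 in each housing, so the GF call was lost there. In SPF and ABX mice 0 and 2 of them had an unadjusted p under 0.05.

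Of 9 genes of sterol sensing tested, 0 were called by edgeR in SPF mice (1 at an unadjusted p under 0.05, 0 by DESeq2 and 1 by voomWithQualityWeights), while GF mice had 1 gene higher and 1 lower, and ABX mice 4 and 1, where 15.6% and 14.4% of all genes were called in either direction. Without mice FAD_ABX_1151 and FAD_ABX_1482 the ABX counts were 2 and 1. *Srebf1*, of the SREBP that drives fatty acid genes, was higher in GF (0.65) and ABX mice (1.05). *Stard4*, a sterol carrier and known SREBP-2 target, was called in ABX mice (2.58, SE 0.807, adjusted p = 0.0292), with 0 to 29 reads per ABX WT mouse. *Scap* and *Mbtps1*, of the escort and the first protease of SREBP, rose by 0.35 and 0.27 in ABX mice, and *Mbtps2*, of the second protease, fell by 0.53 there. *Rnf145*, of a ligase of the sterol response, fell by 0.41 in GF mice.

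Of 8 listed uptake and lysosomal genes, *Vldlr* was left out by the filter, and 7 were tested. In 5xFAD mice edgeR called 2 of these higher under SPF, 3 under GF and 4 under ABX conditions, where 3.73%, 9.43% and 9.45% of all genes were higher, and 0, 1 and 1 lower, where 0.837%, 6.2% and 4.98% of all genes were. DESeq2, voomWithQualityWeights and edgeR without mice FAD_ABX_1151 and FAD_ABX_1482 each called 1 lower under SPF conditions, and without those mice 3 were higher under ABX conditions. *Scarb1*, of a lipoprotein receptor, rose by 0.86, 0.72 and 1.17, and *Npc2*, which moves cholesterol out of lysosomes, by 0.97, 1.39 and 0.95. Its partner *Npc1* gave 0.03, 0.08 and -0.05, with adjusted p-values of 0.61 to 0.952. *Mylip*, of a ubiquitin ligase, fell by 0.48 in GF and 0.44 in ABX mice, with -0.38 in SPF mice (adjusted p = 0.07).

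Of 9 genes of storage, oxysterol synthesis and efflux, 4, 4 and 5 were higher in SPF, GF and ABX mice, against 3.73%, 9.43% and 9.45% of all genes. *Ch25h*, of the enzyme that makes 25-hydroxycholesterol, was at group means of 0.269 to 0.667 CPM in WT and 33.3 to 60.1 CPM in 5xFAD mice. *Apoe*, of the main lipoprotein of the brain, rose by 3.36, 3.53 and 3.67, *Nceh1*, of a cholesteryl ester hydrolase, by 2.07, 2.17 and 1.92, and *Soat1*, of the enzyme that esterifies cholesterol, by 0.66, 0.93 and 0.60. The efflux transporter genes *Abca1* and *Abcg1* were not called between genotypes in any housing. Of 8 fatty acid synthesis genes tested, 2, 3 and 4 were higher, against the same shares of all genes, with *Acaca*, of the enzyme that makes malonyl-CoA, at 2.11, 2.65 and 2.18 and *Scd2*, of a desaturase, at 0.66, 0.56 and 0.68.

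**Figure D4:**
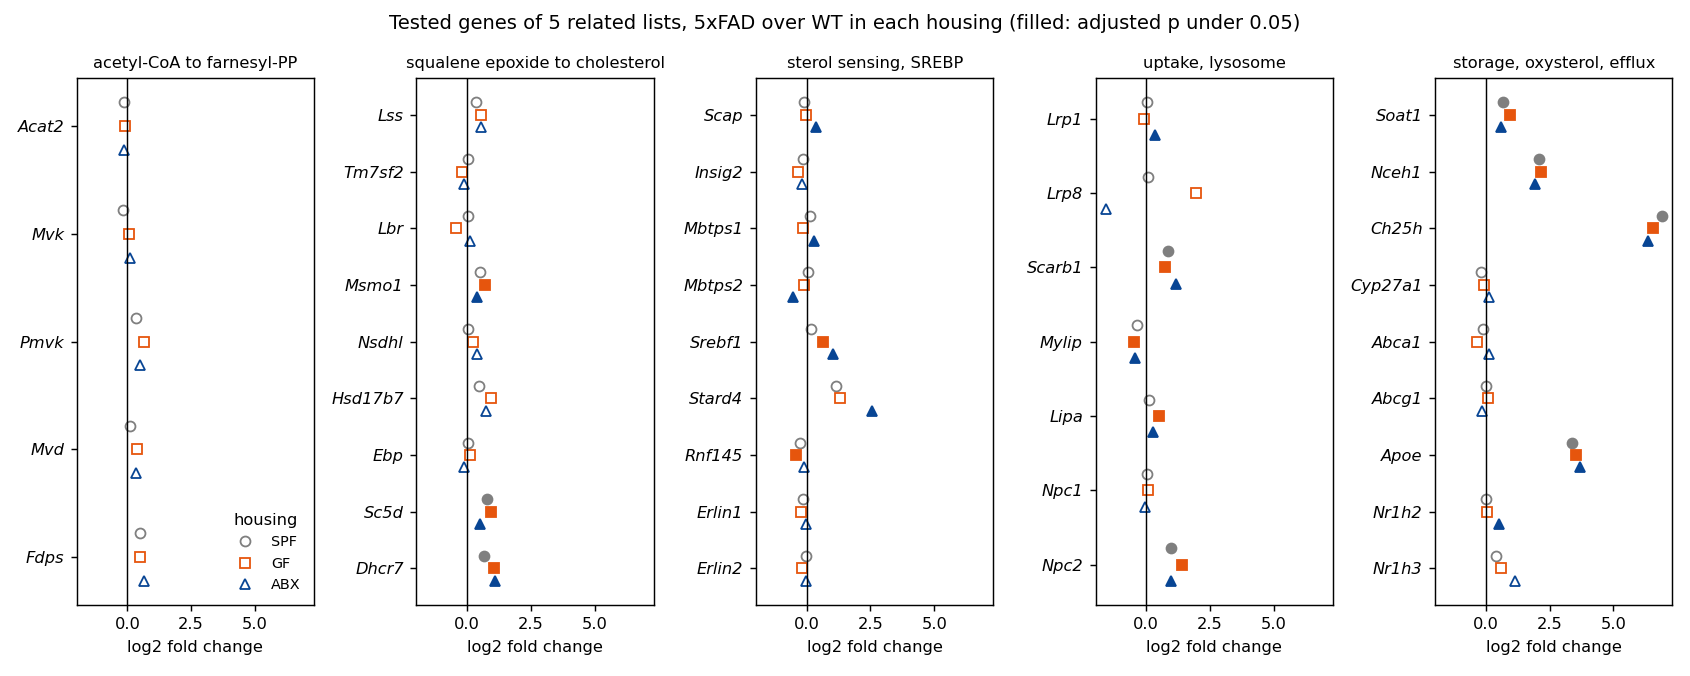
Log2 fold change of 5xFAD over WT (horizontal axes) for the tested genes of 5 lists related to the 7 members (rows), in SPF (circles), GF (squares) and ABX mice (triangles), filled where the adjusted p was under 0.05. *Ch25h*, *Apoe* and *Nceh1* have the highest filled symbols of their list, and the genes between acetyl-CoA and farnesyl diphosphate have no filled symbol.

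In WT mice, GF against ABX was the housing comparison that called *Srebf2*. In it *Scap* gave 0.56, *Srebf1* 0.60, *Scarb1* 0.73, *Apoe* 1.10, *Fasn* 1.23, *Nr1h2* 0.74 and *Mylip* -0.55, all past the threshold in edgeR. They made 2 of 9 genes of sterol sensing, 2 of 7 of uptake, 2 of 9 of storage and efflux and 1 of 8 of fatty acid synthesis called in either direction, where 6.88% of all genes were. DESeq2 called 2, 3, 3 and 1 of these lists and voomWithQualityWeights 2, 3, 2 and 1. EdgeR called 0 of the 9 tested enzymes after squalene epoxide and 0 of the 5 before farnesyl diphosphate (0 and 1 at an unadjusted p under 0.05), and DESeq2 and voomWithQualityWeights called 0 of each. With 9 and 5 genes these counts of 0 are near that background. *Scarb1*, *Apoe* and *Mylip* were also called between GF and SPF WT mice, at 0.79, 0.91 and -0.48. The comparisons of GF mice share the same 4 GF WT libraries, which were in another numbering style than the ABX and SPF WT libraries.

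Genes outside these lists were ranked by how closely they followed the mean of the 7 members' standardised levels. Within groups, over 28 mice and 8861 candidate genes with a mean of at least 3 log2 CPM, the highest correlations were those of *H1f0* (r = 0.747), *Cd34* (0.743), *Hexa* (0.72), *Nbl1* (0.717), *Arhgap24* (0.708) and *Plek* (0.695), and without mouse FAD_ABX_1482 they were 0.64 to 0.805. Over the 6 group means the highest were *Rnf128* (0.997) and *Speg*, *Pea15a*, *Colgalt1*, *Hcar2* and *Ly9* (0.995 each). These are correlations of 6 points and are a description.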

How the data were processed

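The authors sorted hippocampal CD11b+CD45low cells, made unstranded SMARTer v4 and Nextera XT libraries and sequenced 50-base single reads. Per the labels and the study's methods they aligned with STAR 2.7.2 and counted exon reads with featureCounts 1.6.2. The methods name GRCm38, and the processing notes a human build, while the coordinates in the table are those of mouse. The deposited table holds raw counts of reads on exons of each gene, with a column for every mouse, and 92 spike-in rows were left out. Each mouse is 1 replicate, and 14441610 to 29977395 reads on genes per library set the precision. Genes were filtered with filterByExpr (minimum count 10, total 15), scaled by TMM and tested with edgeR 4.0.16 (quasi-likelihood, 6 group means, Benjamini-Hochberg over 15298 genes, R 4.3.3). The log2 CPM values used a prior count of 2. The code was tested on simulated data. Alternatives were other scalings and filters, gene length offsets, DESeq2 1.42.0, limma 3.58.1 voomWithQualityWeights, only the groups compared, 26 mice (without mice FAD_ABX_1151 and FAD_ABX_1482) and each mouse left out.

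The 7 members, the related gene lists and the markers were chosen with earlier results of these data known. Genes named are the members, listed genes that passed or had the lowest p, overlapping genes, and the 6 genes outside the lists with the highest correlation with the members within groups and over group means. Also named are *Npc1*, *Abca1* and *Abcg1*, listed genes not called between genotypes in any housing, *Vldlr*, which the filter left out, and some cell type markers. Mouse FAD_GF_201 was used as GF 5xFAD, after its title and genotype. No 2 libraries of a group agreed within sampling noise. Some genes of the route are not reported here.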

Additional observations from a re-analysis of the deposited data

Results flagged for a closer look

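*Hmgcs1* in mouse FAD_ABX_1482 was at 18.7 CPM, while the other 5 mice of its group had 41.9 to 52.3 CPM. Its gap to the next mouse was 0.69 of the group's range, above Dixon's critical value for 6 mice. Such a test was made for 35 groups of values, and chance flags about 1 in 20. *Sqle* was also lowest of the group in this mouse, at 0.586 CPM.

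The 5xFAD effect on *Srebf2* differed between GF and ABX mice, with a log2 difference of -0.73 in the edgeR interaction test (adjusted p = 0.0474). Over the alternatives the adjusted p ran from 0.0125 to 0.0916, and the call was lost in 24 of 37, among them 21 of the 28 fits that left out 1 mouse. As given above, this difference cannot be told apart from numbering style.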

How the results depend on the processing

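No paired analysis was possible because the replicate numbers are mouse numbers and no groups share them. Of 1469 recomputed values of 40 chosen results, 1390 kept their direction and side of the threshold, 62 lost the call, 17 gained it and 0 changed sign. The 40 were the 5xFAD against WT comparisons of each member, every comparison of *Srebf2* and 3 others. The housing differences of the 5xFAD effect given for other members are not among them. Over all 91 values of the members, 101 of 3328 recomputed values changed sign, 0 of them of called values. For GF against SPF in WT mice the count of members called was 1 (*Srebf2*) in place of 0 with an adjusted p under 0.1, gene length offsets, a minimum of 10 counts in every library, DESeq2, voomWithQualityWeights, only the groups compared and 26 mice, and 0 to 1 with each mouse left out. For GF against SPF in 5xFAD mice it was 1 with voomWithQualityWeights. For the GF minus ABX difference it was 0 in place of 1 with gene length offsets, voomWithQualityWeights and only the groups compared, and 0 to 1 with each mouse left out. The cause was not tested. The *Srebf2* difference lost its call in 24 of 37 alternatives, *Fdft1* in GF mice in 14 and *Hmgcs1* averaged over housings in 9. Scaling by library size alone moved the median of all genes in GF mice from -0.025 to -0.150 and left 4 members called there. Reads limit *Idi1*, and 3 SPF 5xFAD mice limit the SPF comparison.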
